A study of Sus scrofa with 4 samples.

Results

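The genes described here were chosen as the features whose symbol began with DNAH, DNAI, DNAL, IFT, CFAP or TEKT followed by a digit. Many encode parts of the axoneme, the microtubule core of cilia and sperm tails, or of the transport system that builds it. Others, such as CFAP300, are dynein assembly factors. The rule found 62 of the 31908 features in the deposited tables. They comprised 9 axonemal dynein heavy chains (DNAH), 4 dynein intermediate chains (DNAI), 2 dynein light chains (DNAL), 13 intraflagellar transport subunits (IFT), 29 cilia and flagella associated proteins (CFAP) and 5 tektins (TEKT). The study profiled whole testis of pigs (Sus scrofa) by droplet single-cell RNA sequencing at 7, 30, 60 and 90 days of age, with 1 library at each age. The labels gave no strain, genotype, treatment or number of animals for a library, and named the material only as testis cells. All values below are unique molecular identifiers (UMIs), each of which stands for 1 captured transcript. A level is the number of UMIs per 1000000 (CPM) in the summed counts of a group of cells, with an exact 95% Poisson interval. A difference is a log2 ratio of 2 levels with an exact 95% interval. The intervals cover counting error only, and because there was 1 library per age no comparison had a replicate check and no p-value was given.

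The axoneme of a motile cilium or sperm tail is a ring of doublet microtubules around a central pair. Outer and inner dynein arms on the doublets slide them against each other, radial spokes and the central pair regulate that sliding, and tektins form filaments inside the doublet wall. Dynein-2 and kinesin-2 motors carry IFT-A and IFT-B complexes along the growing axoneme. Somatic cells of many kinds bear a non-motile primary cilium, which needs IFT but lacks dynein arms. In the testis, the male germ cell makes its only motile axoneme, the sperm tail, after meiosis.

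The 4 libraries held between 45717373 and 96133720 UMIs in 15896 to 19373 barcodes. Cells were put into classes by clustering each library and scoring marker panels, and every class name is therefore a rebuilt one, written as "like". The 90-day library gave 381 spermatocyte-like cells (median 2262 UMIs), a cluster named by the late spermatocyte panel (score 3.07, against 1.63 for the early panel). It also gave 1206 spermatid-like cells, of which 913 were round spermatid-like (median 1531 UMIs) and 85 condensing spermatid-like (2180 UMIs). A further 854 cells were spermatogonia-like (9397 UMIs), 1725 were germ cells that no single panel resolved, and 6735 were somatic (2374 UMIs). Both clusters of unresolved germ cells scored highest on the early spermatocyte panel (0.485 and 1.265). That panel summed to 1384 CPM in them, 870 CPM in spermatogonia-like and 2383 CPM in spermatocyte-like cells. Spermatogonia-like cells numbered 304 at 7 days, 965 at 30 days and 1241 at 60 days. The naming in use gave no spermatocyte-like or spermatid-like cluster at those ages, and this depended on the rule. A per-cell gate of at least 3 markers took 159, 267 and 85 cells as spermatocytes at 7, 30 and 60 days. Naming clusters by most of their gated cells gave 304 spermatocytes at 7 days and 501 at 30 days. At 60 days 2353 cells stayed unassigned. At 7 and 30 days 1 cluster of each library that passed as spermatogonia-like (clusters 17 and 12) scored higher on the late spermatocyte panel than on the spermatogonia panel, and its leading genes included PIWIL4, MORC1 and FGF8. A second 7-day germ cluster of 223 cells, cluster 15, stayed unnamed because its 10 leading genes held a meiotic marker, SMC1B, and no spermatogonia marker. SMC1B was also among the leading genes of 30-day cluster 6. That cluster was named spermatogonia-like because 1 spermatogonia marker stood beside it. The 60-day spermatogonia-like cluster was shallow, with a median of 1849 UMIs.

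RNA of spermatids was present in every class at 90 days. The 6 markers of condensing spermatids, among them protamine and transition protein genes, summed to 1.34, 0.876 and 5.85 CPM in somatic cells at 7, 30 and 60 days. At 90 days they summed to 2081 CPM in somatic cells, 1135 CPM in spermatogonia-like cells and 1505 CPM in spermatocyte-like cells. In 90-day barcodes under 1000 UMIs they summed to 8638 CPM. The 90-day levels of the axonemal genes in somatic and spermatogonia-like cells are given below beside these values, and the part of free RNA in them was not tested.

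The 62 genes together were highest in round spermatid-like and spermatocyte-like cells. Their summed level was 691 CPM (95% interval 684.8 to 697.5) in somatic cells at 7 days, 708 CPM at 30 days, 690 CPM at 60 days and 1255 CPM at 90 days. At 90 days the sum was 1551 CPM in spermatogonia-like cells, 1850 CPM in unresolved germ cells and 8127 CPM (8009 to 8246) in spermatocyte-like cells. It was 8545 CPM (8420 to 8671) in round spermatid-like and 2743 CPM (2590 to 2902) in condensing spermatid-like cells. The sum thus stood several times higher in spermatocyte-like than in spermatogonia-like cells and lower again in the last class.

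The families followed different courses over the germ cell classes. The 15 dynein arm chains summed to 197 CPM in spermatogonia-like, 1535 CPM in spermatocyte-like, 1625 CPM in round spermatid-like and 293 CPM in condensing spermatid-like cells. The 13 IFT subunits summed to 700, 2239, 1596 and 262 CPM in the same order, so their highest class was the spermatocyte-like one. The 29 CFAP genes summed to 601, 4156, 4517 and 1360 CPM. Of the spermatocyte-like sum, CFAP298-TCP10L, CFAP97 and CFAP36 gave 1083, 618 and 504 CPM, so it rested largely on a few features. The 5 tektins summed to 52.7, 197, 806 and 828 CPM, and unlike the other families they were no lower in condensing than in round spermatid-like cells. Gene by gene, among the 5 classes of germ cells and the somatic cells at 90 days, the highest was the round spermatid-like class for 32 genes, the spermatocyte-like class for 26, the condensing class for 3 and the spermatogonia-like class for 1.

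**Figure D1:**
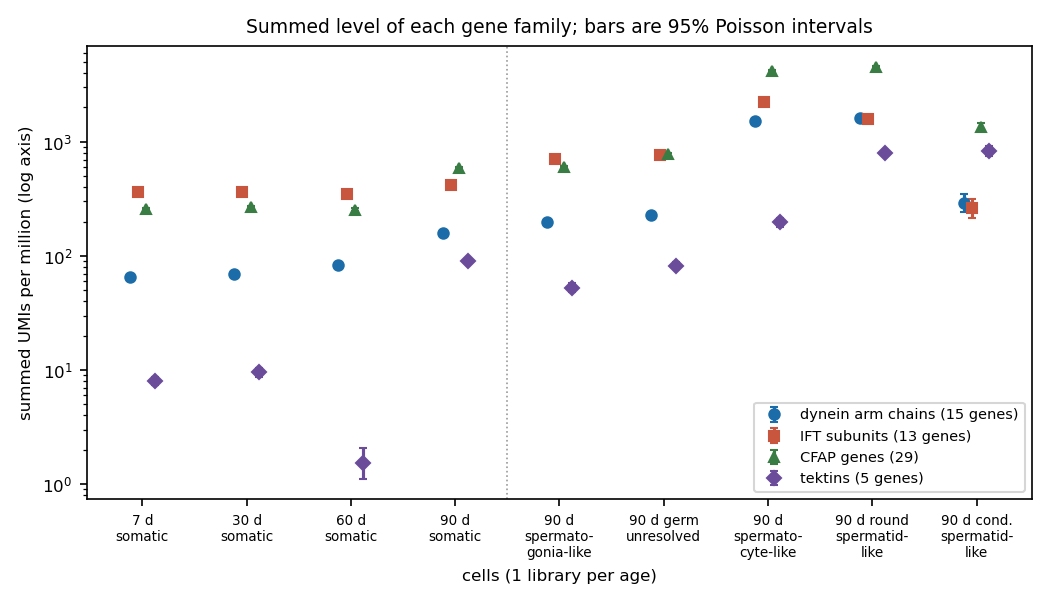
Summed level of each family (CPM, log axis) in somatic cells at 4 ages and in 5 classes of 90-day germ cells, with 95% Poisson intervals. Dynein, IFT and CFAP sums were lower in condensing than in round spermatid-like cells, and the tektin sum (806 and 828 CPM) was not.

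**Figure D2:**
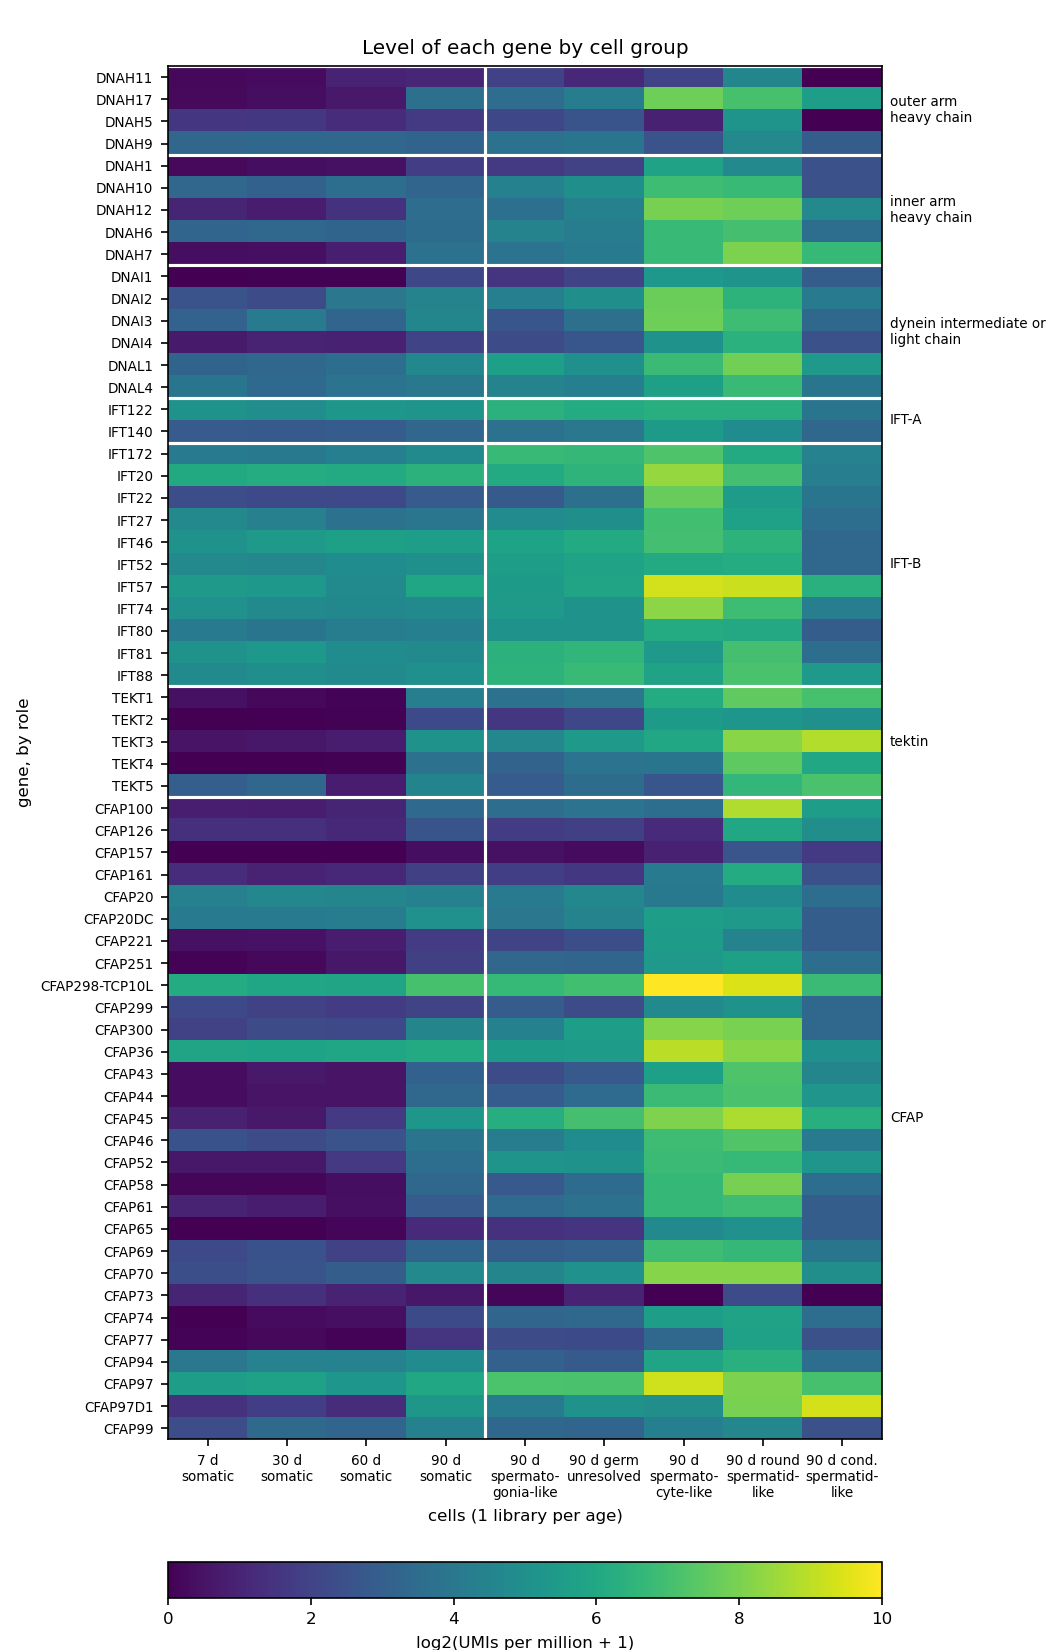
Level of each of the 62 genes (log2 of CPM plus 1, colour) in somatic cells at 4 ages and in 5 classes of 90-day germ cells, ordered by role. The 2 columns of spermatocyte-like and round spermatid-like cells hold the brightest cells for most genes, and TEKT3 and CFAP97D1 are brightest in the condensing column.

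Against somatic cells of the same library, a gene was called when its level differed by at least 2-fold, its interval excluded no change and it had at least 10 UMIs over both sides. In spermatid-like cells 55 of the 62 genes were called higher and none lower, where 27.1% of 20356 features were called higher and 30.2% lower. The median log2 ratio was 3.06 over the genes and −0.11 over all features. All 15 dynein arm chains and all 5 tektins were called higher, as were 26 of 29 CFAP genes, 8 of 11 IFT-B subunits and 1 of 2 IFT-A subunits. The 7 that were not called were IFT20, IFT46, IFT52, IFT122, CFAP20, CFAP20DC and CFAP99. In spermatocyte-like cells 47 of the 61 genes with enough UMIs were called higher, against 19.4% of all features. TEKT5 and CFAP126 were called lower, against 35.4% of features, and the medians were 2.90 and −0.35. TMM scaling moved the ratios by −0.23 in spermatid-like and 0.10 in spermatocyte-like cells and gave 53 and 48 higher (24.4% and 20.3%). CFAP157, with 2 UMIs in spermatocyte-like and 7 in somatic cells, was the gene without enough UMIs. Against somatic cells of the 60-day library, where the condensing markers summed to only 5.85 CPM, 57 of 62 genes were higher in spermatid-like cells (30.3% of features) and 54 of 61 in spermatocyte-like cells (24.7%).

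Outer arm heavy chains differed in when they were highest. DNAH17, which in human sperm is an outer arm heavy chain of the tail, stood at 10.9 CPM in spermatogonia-like, 17.4 CPM in unresolved germ, 220 CPM in spermatocyte-like, 134 CPM in round and 47.8 CPM in condensing spermatid-like cells. Somatic cells held 0.197, 0.299 and 0.625 CPM of DNAH17 at 7, 30 and 60 days and 11.9 CPM at 90 days. It was highest in spermatocyte-like cells, 4.20 (95% interval 3.99 to 4.42) above somatic cells on the log2 scale. At an even depth of 1000 UMIs per cell, 19.7% of spermatocyte-like cells held a DNAH17 UMI, against 12.2% of round spermatid-like and 2.29% of lymphocyte-like cells (46.5%, 24.3% and 3.92% before thinning, at median depths of 2262, 1531 and 1262 UMIs).

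DNAH5, DNAH11 and DNAH9, the outer arm heavy chains of airway cilia, were low in spermatocyte-like cells. DNAH5 had 2 UMIs there (0.9 CPM) against 35.5 CPM in round spermatid-like cells, a log2 ratio of 5.30 (3.40 to 8.37), and no UMI in condensing spermatid-like cells, which puts it at least 5.20-fold lower there with 3 UMIs over the class taken as the limit. DNAH11 stood at 3.15 CPM in spermatocyte-like and 23.0 CPM in round spermatid-like cells, a log2 ratio of 2.87 (1.72 to 4.26), and also had no UMI in the condensing class. DNAH9 stood at 4.95, 24.9 and 6.82 CPM in the same 3 classes. These 3 genes were thus higher in round spermatid-like than in spermatocyte-like cells, and not in the condensing class. DNAH17 was lower in round spermatid-like cells by less than 2-fold (log2 ratio −0.71, −0.93 to −0.50).

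The same 3 heavy chains were also found in germ clusters of the younger libraries. The panel scores, which compare a cluster with the rest of its library, did not settle the stage of clusters 17 and 12. Both scored highest on the late spermatocyte panel, but its level was 1344 and 1478 CPM. That level was 5974 CPM in 90-day spermatocyte-like and 688 CPM in 90-day spermatogonia-like cells. The spermatogonia panel stood at 934 and 1110 CPM in clusters 17 and 12, against 943 CPM in 90-day spermatogonia-like and 683 CPM in spermatocyte-like cells. By level, both clusters were thus nearer to the spermatogonia-like cells. DNAH5 stood at 40.5 CPM in 7-day cluster 17 and 43.1 CPM in 30-day cluster 12, against 17.4 CPM in 7-day cluster 15 and 7.99 CPM in 30-day cluster 6. It was 14.5 CPM in the 60-day and 3.46 CPM in the 90-day spermatogonia-like cells. DNAH11 followed the same order, at 22.6 and 42.6 CPM in clusters 17 and 12 against 1.69 and 5.32 CPM in clusters 15 and 6. It was 13.3 CPM in the 60-day and 2.87 CPM in the 90-day spermatogonia-like cells. DNAH9 stood at 22.8 and 28.7 CPM in clusters 17 and 12 and at 5.90 and 8.97 CPM in clusters 15 and 6. In clusters 17 and 12 the 3 genes thus stood near or above their round spermatid-like levels. DNAH17 did not share this course, with 4.94 and 4.55 CPM in clusters 17 and 12.

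**Figure D3:**
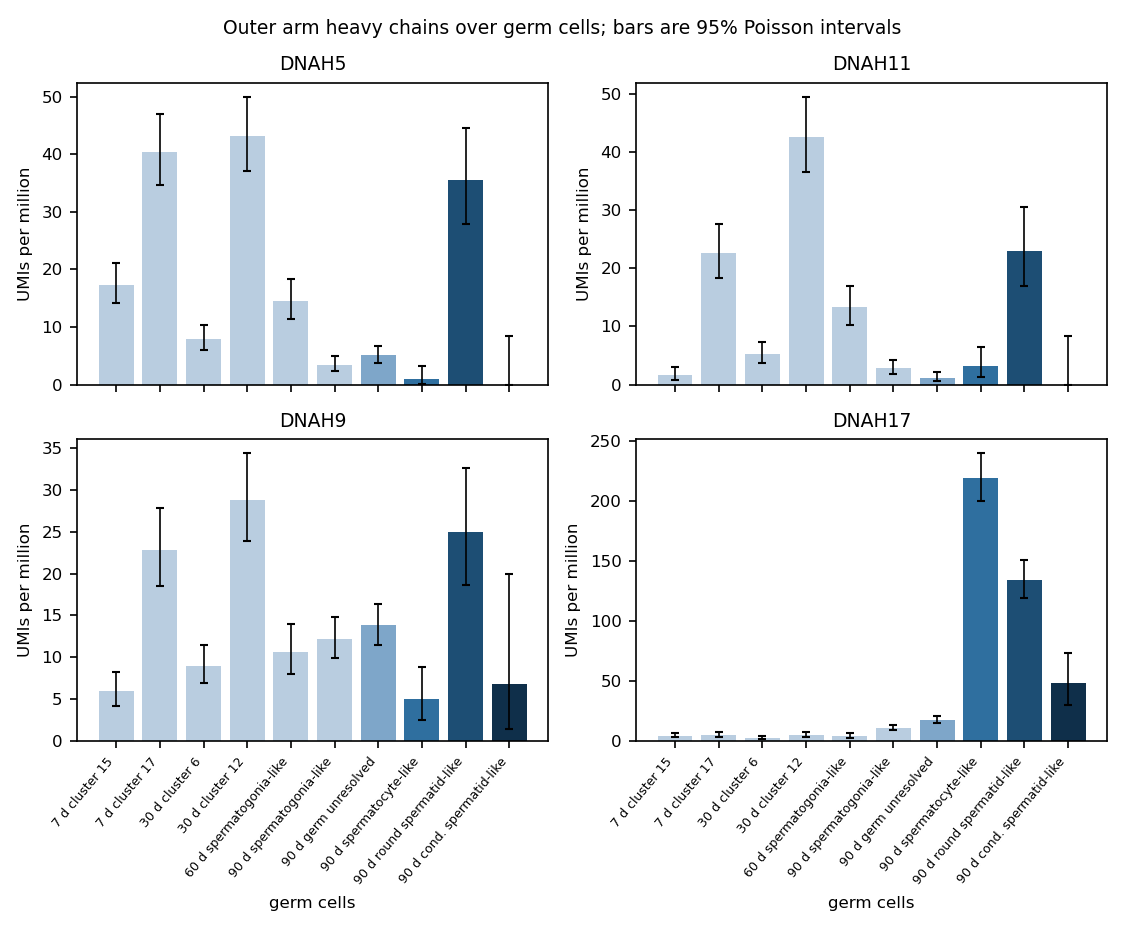
Levels of the 4 outer arm heavy chains (CPM, with 95% Poisson intervals) in germ cell groups from 7 to 90 days. DNAH5, DNAH11 and DNAH9 have bars in 7-day cluster 17, 30-day cluster 12 and round spermatid-like cells and low ones in spermatocyte-like cells (0.9, 3.15 and 4.95 CPM), and DNAH17 is highest in spermatocyte-like cells (220 CPM).

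All 5 inner arm heavy chains were called higher than in somatic cells in both spermatocyte-like and spermatid-like cells. DNAH12, which like DNAH1, DNAH6 and DNAH7 forms a single-headed arm, stood at 11.5 CPM in spermatogonia-like, 245 CPM in spermatocyte-like, 219 CPM in round and 25.0 CPM in condensing spermatid-like cells. DNAH7 stood at 13, 106, 260 and 102 CPM, and was higher in round spermatid-like than in spermatocyte-like cells by 1.29 (1.07 to 1.52). DNAH1, mutated in human males with short and irregular sperm tails, stood at 2.27, 52.6, 25.4 and 4.55 CPM and was lower in round spermatid-like than in spermatocyte-like cells (−1.05, −1.55 to −0.57). DNAH10, a heavy chain of the double-headed inner arm, stood at 20.1, 119, 106 and 4.55 CPM, and DNAH6 at 21.0, 109, 132 and 11.4 CPM. Neither DNAH6 nor DNAH10 nor DNAH12 reached a 2-fold difference between spermatocyte-like and round spermatid-like cells.

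The intermediate chains of a complex did not share 1 course. DNAI2, an outer arm intermediate chain, stood at 18.7 CPM in spermatogonia-like, 216 CPM in spermatocyte-like, 88.2 CPM in round and 15.9 CPM in condensing spermatid-like cells, lower in round spermatid-like than in spermatocyte-like cells by a log2 ratio of −1.29 (−1.55 to −1.04). Its partner DNAI1 stood at 1.91, 39.6, 35.0 and 6.82 CPM. DNAI3 and DNAI4 belong to the double-headed inner arm. DNAI3 stood at 5.37, 223, 117 and 9.10 CPM, and DNAI4 at 3.82, 33.3, 81.9 and 4.55 CPM, so that the first was nearly 2-fold lower and the second higher (1.30, 0.90 to 1.71) in round spermatid-like cells. The light chain DNAL1, of the outer arm, stood at 49.1, 113, 235 and 40.9 CPM. DNAL4, also annotated as an axonemal light chain, stood at 21.2, 50.4, 107 and 13.6 CPM. DNAL1 (1.06, 0.84 to 1.28) and DNAL4 (1.08, 0.75 to 1.43) were both higher in round spermatid-like cells. With TMM scaling neither DNAL1 nor DNAL4 reached 2-fold, and DNAI3 was called lower with DNAI2, so that 1 intermediate or light chain was higher and 2 were lower. Outside germ cells, DNAI3 reached 10.8 CPM in Sertoli-like cells at 7 days and 27.4 CPM at 30 days, against 1.53 and 3.79 CPM in macrophage-like cells.

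IFT-B subunits were called higher than in somatic cells for 9 of 11 genes in spermatocyte-like cells, and many were lower again in round spermatid-like cells. IFT22, a small GTPase of the IFT-B core, stood at 6.21 CPM in spermatogonia-like, 12.1 CPM in unresolved germ, 203 CPM in spermatocyte-like, 44.1 CPM in round and 13.6 CPM in condensing spermatid-like cells. Somatic cells held 4.10, 3.63, 3.60 and 6.23 CPM of IFT22 over the 4 ages. The log2 ratio of round spermatid-like to spermatocyte-like cells was −2.20 (−2.54 to −1.88). At 1000 UMIs per cell 16.3% of spermatocyte-like, 4.16% of round spermatid-like and 1.31% of lymphocyte-like cells held an IFT22 UMI (38.3%, 9.09% and 1.47% before thinning).

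IFT20, which links the Golgi to ciliary transport, stood at 68.3, 341, 127 and 18.2 CPM in spermatogonia-like, spermatocyte-like, round and condensing spermatid-like cells. IFT74, which with IFT81 binds tubulin, stood at 40.6, 308, 119 and 18.2 CPM, and IFT27, the second GTPase, at 27.2, 124, 51.3 and 11.4 CPM. IFT172 stood at 108, 152, 68.5 and 20.5 CPM. These 4 and IFT22 were called lower in round spermatid-like than in spermatocyte-like cells, with log2 ratios from −2.20 to −1.15. IFT57 stood at 42.7, 629, 589 and 79.6 CPM and differed little between spermatocyte-like and round spermatid-like cells (log2 ratio −0.09, −0.21 to 0.02), but was lower in the condensing class. IFT46 (54.4, 129, 88.2 and 9.10 CPM), IFT52 (46.8, 67.9, 72.4 and 9.10 CPM) and IFT80 (34.4, 71.1, 63.7 and 6.82 CPM) were not called either way.

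IFT81 and IFT88 went the other way. IFT81 stood at 85.8 CPM in spermatogonia-like, 95.4 CPM in unresolved germ, 41.8 CPM in spermatocyte-like, 130 CPM in round and 11.4 CPM in condensing spermatid-like cells. IFT88, whose loss in mice shortens sperm tails, stood at 88.1, 109, 53.5, 138 and 40.9 CPM. Both were lowest before the condensing class in spermatocyte-like cells, and both were higher in round spermatid-like cells, by 1.64 (1.29 to 2.0) and 1.37 (1.05 to 1.69). IFT81 and its partner IFT74 thus differed in opposite directions between the same 2 classes. Of the IFT-A pair, which serves return transport, IFT122 stood at 84.4, 77.4, 76.7 and 13.6 CPM and IFT140 at 12.7, 42.3, 27.8 and 9.10 CPM in spermatogonia-like, spermatocyte-like, round and condensing spermatid-like cells, and neither was called between spermatocyte-like and round spermatid-like cells.

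Tektins had their highest sums in the spermatid-like classes. TEKT3 stood at 23.6 CPM in spermatogonia-like, 63.4 CPM in spermatocyte-like, 300 CPM in round and 459 CPM in condensing spermatid-like cells. TEKT5 stood at 6.57, 5.40, 98.2 and 139 CPM, TEKT4 at 8.0, 13.9, 184 and 63.7 CPM and TEKT1 at 12.4, 70.6, 187 and 134 CPM. TEKT2 alone was at similar levels in spermatocyte-like (43.2 CPM), round (37.4 CPM) and condensing (31.8 CPM) spermatid-like cells. The other 4 were called higher in round spermatid-like than in spermatocyte-like cells, by 4.19 (3.35 to 5.16) for TEKT5, 3.72 (3.19 to 4.30) for TEKT4, 2.24 (1.97 to 2.51) for TEKT3 and 1.41 (1.14 to 1.68) for TEKT1. At 1000 UMIs per cell TEKT4 was found in 11.4% of round spermatid-like, 3.15% of spermatocyte-like and 4.58% of lymphocyte-like cells (23.7%, 6.82% and 5.72% before thinning). Lymphocyte-like cells also held more of the condensing markers (4650 CPM) than spermatocyte-like cells (1505 CPM). The thinned share was lower in endothelium-like (1.14%), macrophage-like (1.74%) and all somatic cells (1.90%). The interval in spermatocyte-like cells (1.64% to 5.44%) overlapped those of all these classes. The part of free RNA in the spermatocyte-like share was not tested.

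Of 29 CFAP genes, 8 were called higher and 2 lower in round spermatid-like than in spermatocyte-like cells. Over all features 30.0% were called higher and 13.8% lower, so the higher CFAP calls were near the background. CFAP100, a docking factor of an inner dynein arm, stood at 10.9 CPM in spermatogonia-like, 11.2 CPM in spermatocyte-like, 445 CPM in round and 47.8 CPM in condensing spermatid-like cells, a log2 ratio of 5.31 (4.73 to 5.94) between the middle classes. At 1000 UMIs per cell it was found in 39.0% of round spermatid-like, 2.36% of spermatocyte-like and 1.47% of lymphocyte-like cells (55.1%, 5.51% and 2.29% before thinning). CFAP126, a protein inside the doublet microtubule, had 3 UMIs in spermatocyte-like cells (1.35 CPM) and 61.8 CPM in round spermatid-like cells. CFAP97D1, needed for sperm tail upkeep in mice, stood at 15.8, 30.1, 256 and 653 CPM. The other CFAP genes called higher were CFAP157, CFAP77, CFAP161, CFAP43 and CFAP58, of which CFAP43 (48.6 and 150 CPM) and CFAP58 (101 and 248 CPM) are mutated in men with malformed sperm tails.

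The 3 highest CFAP features of spermatocyte-like cells, CFAP298-TCP10L, CFAP97 and CFAP36, were lower in round spermatid-like cells, and of these only CFAP97 passed 2-fold on the CPM scale. The feature CFAP298-TCP10L, a read-through of a dynein assembly factor and its neighbour whose reads cannot be told apart, stood at 102, 1083, 714 and 111 CPM in spermatogonia-like, spermatocyte-like, round and condensing spermatid-like cells. CFAP97 stood at 142, 618, 259 and 136 CPM and was called lower in round spermatid-like cells (−1.26, −1.40 to −1.11), as was CFAP221 of the central pair (43.6 and 21.1 CPM in the middle classes). CFAP36 stood at 42.5, 504, 301 and 31.8 CPM, a difference between the middle classes that passed 2-fold only with TMM scaling. CFAP70, of the central pair, stood at 22.3, 291, 287 and 29.6 CPM, and CFAP300, a dynein assembly factor, at 19.9, 291, 251 and 9.10 CPM. CFAP45, a protein inside the doublet, stood at 73.9, 266, 436 and 77.3 CPM. CFAP44, CFAP61 and CFAP69 stood at 112, 99.9 and 119 CPM in spermatocyte-like cells and at 140, 119 and 100 CPM in round spermatid-like cells, differences under 2-fold.

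Over all 61 genes with enough UMIs (CFAP73, with 8 and 0 UMIs, was left out), 21 were called higher and 9 lower in round spermatid-like than in spermatocyte-like cells, where 30.0% of 14029 features were called higher and 13.8% lower. The shares among the genes were close to those over all features. With TMM scaling, which moved every log2 ratio by −0.27, the split was 19 higher and 11 lower (24.8% and 19.7% of features). Over all spermatid-like cells, 17 were higher and 11 lower than in spermatocyte-like cells (31.7% and 15.8% of features), and 11 higher and 15 lower with TMM scaling (26.3% and 21.3%), so the higher calls were then fewer than the background. A per-cell gate in place of clusters gave 6 higher and 31 lower. No direction over the whole set held across these settings, and the family-specific differences above are given for the cluster-based classes.

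**Figure D4:**
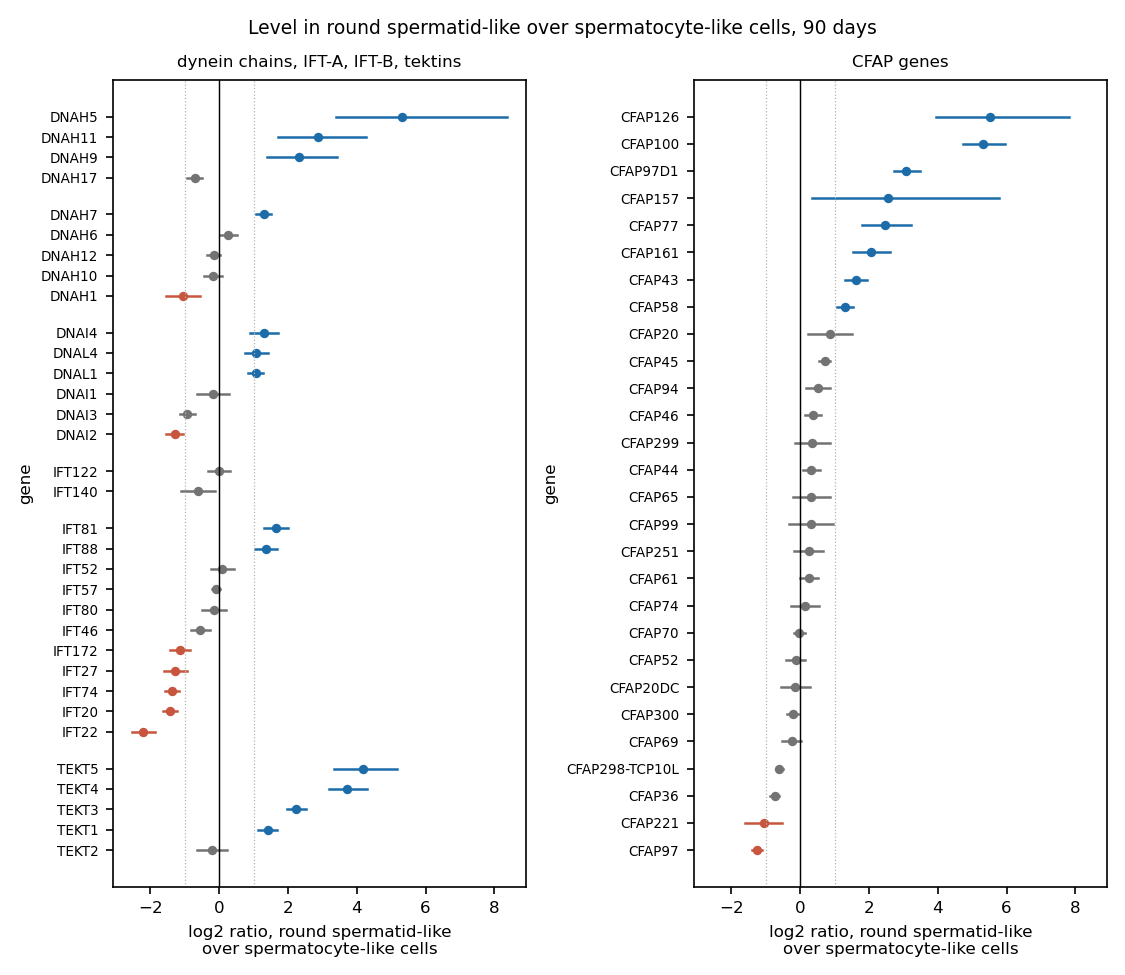
Log2 ratio of the level in round spermatid-like over spermatocyte-like cells at 90 days for each gene with enough UMIs, with 95% intervals (blue, called higher; red, called lower; grey, not called; dotted lines, 2-fold). TEKT5, TEKT4, DNAH5, CFAP126 and CFAP100 lie far to the right, and IFT22, IFT20 and IFT74 to the left.

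Between round and condensing spermatid-like cells most of the genes were lower. Of 61 genes 52 were called lower and 1 higher, where 39.0% of 12593 features were called lower and 8.09% higher, and the medians were −2.48 and −0.98. All 15 dynein arm chains and all 13 IFT subunits were lower. CFAP97D1 was the gene called higher (1.35, 1.14 to 1.56). Among tektins TEKT4 was called lower (−1.53, −2.14 to −0.97), and TEKT3 (0.62, 0.38 to 0.85) and TEKT5 (0.50, 0.06 to 0.92) were higher by less than 2-fold. The 6 condensing markers summed to 112500 CPM in the condensing class, and TMM scaling moved every ratio by 0.82, which left 37 genes lower and 3 higher (17.7% and 13.6% of features), with 2 of the 5 tektins among the higher ones and none among the lower. On that scale 2 outer arm and 3 inner arm heavy chains, 5 intermediate or light chains, 8 IFT-B subunits and 1 IFT-A subunit were lower.

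Other axonemal and tail genes were described by list, against 19.4% of all features higher in spermatocyte-like and 27.1% higher in spermatid-like than in somatic cells, with medians of −0.35 and −0.11. The figures in this paragraph are CPM in spermatocyte-like, round and condensing spermatid-like cells, and the lists were drawn up with earlier results of these data known. Of 13 dynein arm assembly factors with enough UMIs 10 were called higher in spermatocyte-like than in somatic cells and 9 in spermatid-like cells. DNAAF6 stood at 25.2, 144 and 27.3 CPM, PIH1D2 at 110, 130 and 40.9 CPM and LRRC6 at 290, 310 and 45.5 CPM. Of 15 radial spoke and central pair genes, 14 were higher in spermatocyte-like and all 15 in spermatid-like cells, among them SPAG17 (25.6, 62.3 and 54.6 CPM), RSPH1 (225, 248 and 20.5 CPM) and SPEF2 (94.5, 222 and 237 CPM). Of 11 docking and regulatory complex genes 10 were higher in spermatocyte-like and 11 in spermatid-like cells, led by ARMC4 (48.1, 153 and 20.5 CPM), DRC3 (60.3, 109 and 38.7 CPM) and DRC7 (73.8, 64.2 and 2.27 CPM).

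Outer dense fibres and a fibrous sheath wrap the axoneme in the sperm tail. The list drawn up for them also held SMCP, SPATA19, TSSK1B and TSSK2, so its counts are not those of these structures alone. Of 12, 2 were called higher in spermatocyte-like than in somatic cells, near the 19.4% of all features, and 12 in spermatid-like cells, against 27.1%. Between round and condensing spermatid-like cells 7 were higher and 2 lower (8.09% and 39.0% of features), with ODF3 at 4.95, 129 and 4.55 CPM, FSIP1 at 74.7, 113 and 2.27 CPM and SMCP at 40.0, 543 and 2049 CPM. Of 11 dynein-2 and kinesin-2 genes 5 were higher and 1 lower in spermatocyte-like cells and 8 higher and 1 lower in spermatid-like cells, led by KIF17 (17.5, 209 and 277 CPM), DYNLRB2 (309, 208 and 25.0 CPM) and DYNC2LI1 (34.6, 300 and 20.5 CPM). Of 11 genes on a list for the BBSome, which serves membrane cargo of cilia, 5 were higher in each class, and 1 was lower in spermatid-like cells. That list also held ARL6, LZTFL1, MKKS, BBS10 and BBS12, so its counts are not those of the complex alone. LZTFL1 stood at 1043, 498 and 38.7 CPM, TTC8 at 21.6, 30.2 and 11.4 CPM and BBS1 at 28.3, 23.5 and 4.55 CPM. Of 10 transcription factors linked to cilia or spermiogenesis 8 were higher in spermatid-like cells, led by GMNC (0.9, 8.15 and 0 CPM), SOX30 (14.4, 40.2 and 50 CPM) and SOX5 (10.3, 166 and 43.2 CPM). MCIDAS, a switch of multiciliated cells, had no UMI in these 3 classes.

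Of 9 markers of multiciliated or duct epithelium, 7 had enough UMIs at 90 days and 2 were called higher in spermatid-like than in somatic cells, near the 27.1% of all features. KRT7, a duct keratin, stood at 0.137, 1.65, 0.184 and 0.360 CPM in somatic cells at 7, 30, 60 and 90 days. The 3 with the highest ratio in spermatid-like cells were DEUP1 (292 CPM in round spermatid-like cells), EPCAM (20.1 CPM) and CCNO (3.36 CPM), and DEUP1 was also at 81.0 CPM in 7-day somatic cells.

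The 2 germ clusters of each of the 7-day and 30-day libraries differed in these genes. At 7 days cluster 17 held 311 CPM of dynein arm chains, 735 CPM of CFAP genes, 608 CPM of IFT subunits and 29.4 CPM of tektins, against 111, 514, 512 and 5.56 CPM in cluster 15. Of 55 genes 32 were called lower and 4 higher in cluster 15 than in cluster 17 (40.7% and 6.08% of features). At 30 days 30 of 56 genes were lower and 2 higher in cluster 6 than in cluster 12 (40.0% and 7.31%). Both shares of lower calls stood above the background on the CPM scale. TMM scaling moved the ratios by 0.70 at 7 days and 0.73 at 30 days and gave 18 lower and 7 higher, and 14 lower and 8 higher, respectively. On that scale 25.7% and 24.9% of features were lower, so the 30-day share was at the background. Dynein arm chains made up 11 of the lower calls in each library on the CPM scale, and with TMM scaling 2 outer arm and 1 inner arm heavy chains and 3 intermediate or light chains in each. CFAP44 (32.0 and 35.2 CPM in clusters 17 and 12 against 2.87 and 5.6 CPM in clusters 15 and 6), CFAP58 (22.8 and 25.6 against 3.37 and 2.94 CPM) and DNAH7 (41.2 and 47.2 against 8.43 and 10.2 CPM) had the same order in both. IFT20 was the reverse, at 17.7 and 14.1 CPM in clusters 17 and 12 against 37.4 and 33.6 CPM in clusters 15 and 6, and IFT46 was too, at 10.1 and 11.3 against 23.9 and 32.9 CPM.

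Against somatic cells of their own library, 41 of 58 genes were higher and 2 lower in the 7-day spermatogonia-like cells, where 49.3% and 13.2% of features were called. The counts were 33 higher and 4 lower of 59 genes at 30 days (45.6% and 14.9%), 32 and 0 of 58 at 60 days (33.3% and 11.7%) and 13 and 7 of 62 at 90 days (20.5% and 25.2%). These early counts depended on scaling, since TMM moved the ratios by −1.34, −0.92 and −0.68 at 7, 30 and 60 days. On that scale 21, 23 and 21 genes were higher (30.6%, 30.4% and 21.7% of features) and 8, 8 and 4 lower (33.4%, 29.1% and 24.4%). At 90 days the TMM counts were 10 higher and 9 lower (18.1% and 27.5%). The 7-day class was cluster 17 alone, while the 30-day class pooled clusters 12 and 6, so the ages held unlike sets of cells. Cluster 15 over 7-day somatic cells, with TMM scaling, had 20 genes higher and 12 lower (19.5% and 29.9% of features). The 13 higher at 90 days included IFT172, IFT81, IFT88 and IFT122 with DNAH10, DNAH11 and DNAL1, and the 7 lower included TEKT5, DNAI3 and CFAP97D1.

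The spermatogonia-like cells of 90 and 7 days could not be ordered firmly. Of 60 genes 14 were higher and 17 lower at 90 days (13.7% and 38.9% of features), and with TMM scaling, which moved the ratios by 0.60, 23 were higher and 11 lower (24.5% and 28.1%). With 7-day cluster 15 counted in, 18 were higher and 7 lower. The condensing markers were at 1135 CPM in these cells at 90 days and 19.5 CPM at 7 days. DNAH5 (40.5 and 3.46 CPM at 7 and 90 days), DNAH11 (22.6 and 2.87 CPM) and IFT74 (156 and 40.6 CPM) were among the lower, and IFT46 (10.1 and 54.4 CPM), IFT20 (17.7 and 68.3 CPM) and IFT172 (33.4 and 108 CPM) among the higher.

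From spermatogonia-like to spermatocyte-like cells within the 90-day library, 46 of 60 genes were higher and 2 lower (18.6% and 34.1% of features), and the 2 lower were IFT81 and DNAH9. Most of that difference lay between the unresolved germ cells and the spermatocyte-like cells, where 44 of 60 genes were higher and 4 lower (18.0% and 30.0%). The spermatocyte-like class was named by the late panel, and the unresolved clusters scored highest on the early one. The step thus cannot be read as entry into meiosis. Between spermatogonia-like and unresolved germ cells 4 of 61 genes were higher and 1 lower (4.24% and 9.99%).

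Somatic cells carried IFT subunits at every age. IFT subunits summed to 360 CPM at 7 days, 360 CPM at 30 days, 351 CPM at 60 days and 420 CPM at 90 days. Among 7-day somatic classes the IFT sum was 410 CPM in Sertoli-like, 400 CPM in stroma-like, 327 CPM in myoid-like, 258 CPM in endothelium-like and 257 CPM in Leydig-like cells, and 120 CPM in macrophage-like and 117 CPM in lymphocyte-like cells. The macrophage-like and lymphocyte-like cells were thus the lowest of these classes at 7 days. Such cells usually lack a primary cilium, and a link between that and these levels was not tested. A further 2415 somatic cells that no panel resolved are not listed. At 90 days the order did not hold. Lymphocyte-like cells then held 468 CPM and macrophage-like cells 358 CPM of IFT subunits. Sertoli-like cells held 384 CPM, endothelium-like 375 CPM and Leydig-like 358 CPM, while stroma-like (526 CPM) and myoid-like cells (488 CPM) were higher. Of 46 genes 33 were higher and none lower in Sertoli-like than in macrophage-like cells at 7 days (32.9% and 13.2% of features), 11 of the 13 IFT subunits among them. With TMM scaling, a shift of −0.41, 26 were higher and none lower (23.7% and 16.9%). Single genes were uneven among somatic classes. CFAP94 stood at 44.9 CPM in Leydig-like and 15.9 CPM in Sertoli-like cells at 7 days and at 61.0 and 25.9 CPM at 30 days, against 4.08 and 4.43 CPM in macrophage-like cells. TEKT5 stood at 11.4 and 14.3 CPM in Sertoli-like cells at 7 and 30 days and 0.691 CPM at 60 days. DNAH9 stood at 13.9, 18.1 and 16.3 CPM in stroma-like cells at 7, 30 and 60 days, against 9.81, 9.94 and 7.28 CPM in Sertoli-like cells; at 7 days the myoid-like cells, with 7 UMIs, were level with the stroma-like ones (13.1 CPM).

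At 90 days the somatic cells held more of the tail genes. Dynein arm chains summed to 65.3, 69.7, 82.6 and 158 CPM at 7, 30, 60 and 90 days, CFAP genes to 258, 269, 255 and 587 CPM, and tektins to 8.03, 9.53, 1.55 and 89.8 CPM. Of 61 genes 34 were higher and none lower at 90 than at 7 days (33.4% and 7.24% of features), with medians of 1.56 and 0.51. All 5 tektins, 10 of 15 dynein arm chains and 19 of 28 CFAP genes were higher, and none of the 13 IFT subunits. TMM scaling moved the ratios by −0.54 and gave 32 higher and 2 lower (22.8% and 15% of features). At 60 against 7 days 9 of 56 genes were higher and 3 lower (19.6% and 5.08%).

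Condensing spermatid markers moved with these somatic values, from 1.34 CPM at 7 days to 2081 CPM at 90 days. Lymphocyte-like cells, which have no axoneme, held 4650 CPM of the condensing markers and 1858 CPM of the 62 genes at 90 days, and macrophage-like cells 2423 and 1065 CPM. Over the 7 somatic panels tektins stood at 3.73 to 5.0 UMIs per 100 condensing-marker UMIs and IFT subunits at 10.1 to 26.8, and in barcodes under 1000 UMIs at 3.83 and 10.5. When the profile of barcodes under 1000 UMIs was scaled to the condensing markers and subtracted, 23.6% of somatic counts were removed. After that 4 genes were higher and 29 lower at 90 than at 7 days. These barcodes held at least 689 UMIs each (median 842), so their profile may mix cell RNA with free RNA. How much cell RNA was subtracted was not tested.

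**Figure D5:**
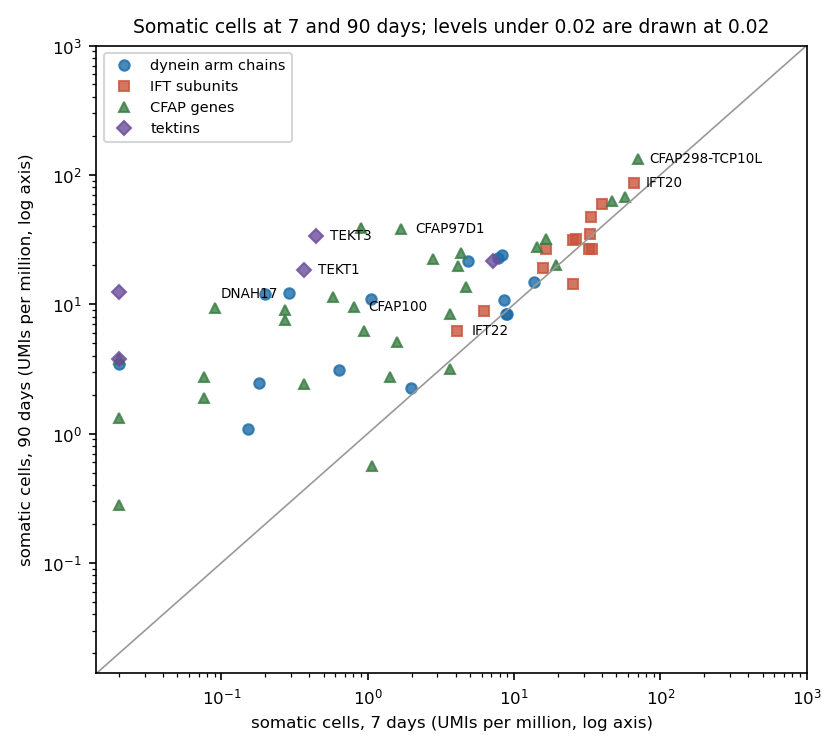
Level of each gene in somatic cells at 90 days against 7 days (CPM, log axes; levels under 0.02, zeros included, are drawn at 0.02; the line marks equal levels). IFT subunits lie near the line, and tektins such as TEKT3 (0.440 and 33.7 CPM) and dynein chains such as DNAH17 (0.197 and 11.9 CPM) lie above it.

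In the whole library, all kept cells together, 43 of the 62 genes were higher and none lower at 90 than at 60 days (20.8% and 12% of features). The 4 libraries held 0.761, 0.860, 1.06 and 28.4 CPM of DNAH17, 1.65, 1.89, 1.81 and 51.5 CPM of TEKT3, and 4.41, 3.70, 3.76 and 18.3 CPM of IFT22, in order of age. For these 3 genes the first 3 libraries were alike and the 90-day library stood apart. IFT88 moved less, at 30.8, 36.7, 31.0 and 62.7 CPM. A whole-library level cannot tell a change in the share of germ cells from a change within cells. CFAP157, a sperm tail gene in mice, had no UMI in the cells of the 7, 30 and 60-day libraries and had 26 UMIs at 90 days.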

How the data were processed

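Raw UMI counts per gene and barcode were deposited for 4 libraries (1 per age) and, per the file headers and the submitters' processing notes, came from Cell Ranger 5.0.1 on Sscrofa11.1; the notes also name bcl2fastq and Scanpy 1.7.1. The kit reads 3′ ends, so levels of different genes or families are not on a common scale. Ranking by level served to choose the CFAP genes to name. The labels name 86453 captured cells; the matrices held 69602 barcodes, of which 55798 had at least 1000 UMIs, 500 genes and at most 15% mitochondrial UMIs. Scrublet scores were ranked and the top 0.8% per 1000 barcodes removed as doublets, leaving 47969 cells. Each library was clustered (Scanpy 1.11.5, igraph 0.11.9, resolution 1) and clusters were named from 12 marker panels. The planned gate, at least 3 markers per cell, was replaced after the data were seen, because at 90 days it also took cells of somatic clusters as spermatids; 4 gating schemes were looked at, and naming thresholds were set with summed levels of the genes on screen. Counts were summed per class; ratios have exact conditional binomial intervals, and a zero was set at 3 UMIs over the class. With 1 library per age no test between ages was possible. The calling step was run on simulated Poisson counts, the model that its intervals assume. It therefore could not test spread between cells, animals or libraries, or free RNA. TMM factors came from edgeR 4.0.16 (R 4.3.3). Tried alternatives numbered 13 planned and 4 added. All dynein, IFT and tektin genes with at least 10 UMIs at 90 days were named, with the 6 highest CFAP genes in each of 3 classes and the 3 highest ratios of each other list; further CFAP genes and non-germ examples were chosen after their values were seen. The genes and lists were chosen with earlier results of these data known.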

Additional observations from a re-analysis of the deposited data

Results flagged for a closer look

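Barcodes under 1000 UMIs at 90 days, which entered no class, held 3759 CPM of the 62 genes, against 652 CPM at 7 days, 683 CPM at 30 days and 836 CPM at 60 days.

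Features listed only by an identifier, which the symbol rule could not take, were named through the gene name table, and 9 stood above the 60-day somatic level or the limit of a zero count in 90-day spermatocyte-like cells. CFAP410 stood at 238 CPM there, CFAP206 at 76.5 CPM and CFAP91, at the base of a radial spoke, at 74.7 CPM. DNAH14 stood at 65.2 CPM, CFAP92 at 60.7 CPM and the IFT-A subunit IFT43 at 54.9 CPM. CFAP57 stood at 40.5 CPM, CFAP54 of the central pair at 22.9 CPM and the inner arm heavy chain DNAH2 at 4.05 CPM. No explanation was tested.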

How the results depend on the processing

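Of 156 counts under alternative settings, 129 stayed within 1.5 times the reported count and 27 did not; the cause was not tested. The gate in use was chosen after the data were seen, and the planned per-cell gate gave 37 genes higher in spermatid-like and 46 in spermatocyte-like than in somatic cells, against 55 and 47. Per-cell gates of 3, 2 and 5 markers each gave 6 genes higher (17 reported) and 31 lower (11 reported) in spermatid-like than in spermatocyte-like cells; there the mean over cells gave 11 higher, thinned cells 10 and TMM 11. Over somatic cells, spermatogonia-like cells had 13 genes higher, 6 as a mean over cells and 30 with free RNA scaled to the condensing panel. That setting was added after seeing the data and may also subtract cell RNA. In somatic cells at 90 against 7 days that scaling gave 4 higher (34 reported) and 29 lower (0 reported); stricter cells gave 1 lower, TMM 2, removal of 10% free RNA 1 and a 1.5-fold limit 2. In spermatogonia-like cells at 90 against 7 days, TMM gave 23 higher and 11 lower (14 and 17 reported) and the scaled free RNA 6 and 28. Lower counts there were 2, 2 and 0 with the per-cell gates of 3, 2 and 5 markers, 9 without doublet removal, and, both added later, 7 at resolution 0.5 and 7 with 7-day cluster 15 counted in. Naming clusters by most of their gated cells gave no value for 6 of 10 results. No paired analysis was possible because each age had 1 library. No library could be left out for the same reason. Genes at under 10 UMIs over both sides had no call.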

Other observations

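DNAH3, an inner arm heavy chain listed by identifier and so outside the 62 genes, had 1 UMI in spermatocyte-like cells and stood at 33.5 CPM in round spermatid-like cells at 90 days. It was chosen after its values were seen.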
